A study of Homo sapiens with 4 samples.

Results

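The tubulin isotypes described here are 9 genes, TUBA1A, TUBA1B, TUBA1C, TUBA4A, TUBB, TUBB2A, TUBB3, TUBB6 and TUBG1, out of 23228 gene symbols with a read count. They encode alpha, beta and gamma tubulins, and the set was selected on the EC359 against vehicle counts because TUBA1C was lower with EC359. Their differences between treatments are therefore given as a description, with standard errors and no p-values. Calls from the test over all genes are listed beside the share of all genes called, and nothing is read from them. RNA was sequenced from ES2, an established human ovarian cancer cell line grown in RPMI with 10% FBS, after 12 h with vehicle (0.1% DMSO) or with EC359 at 10 nM. EC359 is a small-molecule inhibitor of LIFR, the receptor for leukemia inhibitory factor, and the labels give no genetic change in either group. Each treatment had 2 libraries, named by the study as biologically independent samples of this 1 cell line, and the profiling asked which genes respond to LIFR inhibition.

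Microtubules are polymers of alpha/beta tubulin dimers, and they form the mitotic spindle and the tracks of intracellular transport. Humans carry several alpha genes and several beta genes, closely alike within each class, whose proteins mix in 1 polymer, while gamma tubulin sits in the ring complex that starts new microtubules. Tubulin mRNAs are also regulated by their own product. When free dimers are in excess, TTC5 binds the first residues of a tubulin chain as it leaves the ribosome, and through SCAPER it brings the CCR4-NOT deadenylase to the mRNA. The taxanes used against ovarian cancer bind beta tubulin, and TUBB3 is known as an isotype of neurons that many tumors also express.

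The start of the coding sequence is shown first because it encodes the residues that TTC5 reads. In the lines below, the first 12 coding bases are given 5′ to 3′ from GRCh37, with codons 2 to 4 in capitals.
TUBA1A: atgCGTGAGTGC
TUBA1B: atgCGTGAGTGC
TUBA1C: atgCGTGAGTGC
TUBA4A: atgCGTGAATGC
TUBB: atgAGGGAAATC
TUBB2A: atgCGCGAGATC
TUBB3: atgAGGGAGATC
TUBB6: atgAGGGAGATC
TUBG1: atgCCGAGGGAA
The 4 alpha genes encode Met-Arg-Glu-Cys and the 4 beta genes Met-Arg-Glu-Ile, the sequences known to be read in autoregulation. TUBG1 encodes neither. TUBA1A, TUBA1B and TUBA1C were identical over these bases, so this part of the mRNA does not separate the 3 genes.

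The isotypes differ most at the end of the protein, the acidic tail that reaches out of the microtubule and carries most tubulin modifications. The last 30 coding bases of 4 members are given below, with the final codon in capitals, because it encodes the last residue, which is a tyrosine in many alpha tubulins and can be removed by detyrosination.
TUBA1C: gctgacggagaggatgagggtgaagagTAT
TUBA4A: tcctatgaggacgaggatgagggagaaGAA
TUBB: gatttcggtgaggaggccgaagaggagGCC
TUBB3: gaggaggagtcggaggcccagggccccAAG
TUBA1C ends in tyrosine, TUBA4A in glutamate, TUBB in alanine and TUBB3 in lysine. Over whole proteins, TUBA1A and TUBA1B shared 99.56% of residues, and TUBA1C shared 98% with each. TUBA4A shared 95.99% with TUBA1C, TUBB shared 41.65%, and TUBG1 shared 33.26%.

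This likeness bears on the counts, since reads were 50 bases long and reads with several alignments were not counted. Of the 50-base windows along a transcript, the share found at a single place in GRCh37 was 37.2% for TUBA1B, 47.2% for TUBA1A and 72.6% for TUBA1C. It was lowest for TUBA1B among the alpha members, where 24.2% of the windows inside the coding sequence and 98.9% of the others were found once. TUBB2A had 35.3%, and 59.5% of its windows also lay in TUBB2B. The remaining members had 68.4% (TUBG1), 76.4% (TUBB), 90.5% (TUBB3), 94.3% (TUBA4A) and 98.5% (TUBB6). Counts of the members with low shares, TUBB2A, TUBA1B and TUBA1A above all, thus came from a part of each transcript.

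**Figure D1:**
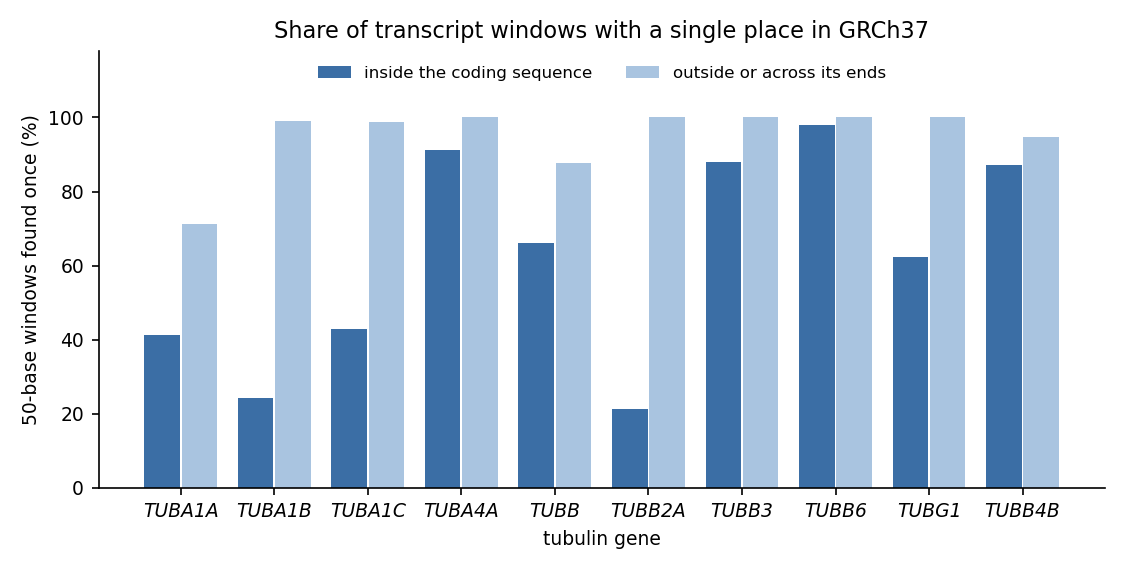
Share of 50-base transcript windows (y axis, percent) that occur once in GRCh37, for the 9 isotypes and TUBB4B (x axis), inside the coding sequence (dark bars) and outside it or across its ends (light bars). The dark bars are lowest for TUBB2A (21.2%) and TUBA1B (24.2%) and highest for TUBB6 (97.9%).

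TUBA1B, TUBA1A and TUBA1C lie together on chromosome 12 of GRCh37. TUBA1B runs from 49521565 to 49525180 and TUBA1A from 49578469 to 49582863, both on the minus strand, and TUBA1C runs from 49582519 to 49668383 on the plus strand. In the GENCODE annotation, exons of TUBA1A and TUBA1C overlap by 104 bases on opposite strands. The overlap involves other TUBA1C transcripts than the one used here for lengths, and the counts were made with RefSeq. The other members are spread over chromosomes 2 (TUBA4A), 6 (TUBB and TUBB2A), 16 (TUBB3), 17 (TUBG1) and 18 (TUBB6). The 250 bases before the transcription starts of the 3 clustered genes are given below from RefSeq on GRCh38.p14, because these genes had the largest relative differences among the isotypes apart from TUBA4A, which rests on few counts. Capitals mark the CCAAT box (CCAAT), the TATA box (TATAAA) and the GC box (GGGCGG), searched on both strands. The windows are chr12:49131396-49131645 (TUBA1B, minus strand), chr12:49189081-49189330 (TUBA1A, minus strand) and chr12:49264832-49265081 (TUBA1C, plus strand).
TUBA1B: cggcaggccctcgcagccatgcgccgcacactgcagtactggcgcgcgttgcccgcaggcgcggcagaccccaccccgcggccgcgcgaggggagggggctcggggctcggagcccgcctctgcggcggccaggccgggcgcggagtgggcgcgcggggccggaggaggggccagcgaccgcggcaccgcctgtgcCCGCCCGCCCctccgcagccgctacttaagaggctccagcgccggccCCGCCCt
TUBA1A: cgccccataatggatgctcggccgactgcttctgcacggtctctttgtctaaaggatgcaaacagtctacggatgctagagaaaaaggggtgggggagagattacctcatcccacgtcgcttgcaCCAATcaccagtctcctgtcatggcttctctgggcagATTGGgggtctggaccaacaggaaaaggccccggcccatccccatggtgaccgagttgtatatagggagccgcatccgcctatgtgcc
TUBA1C: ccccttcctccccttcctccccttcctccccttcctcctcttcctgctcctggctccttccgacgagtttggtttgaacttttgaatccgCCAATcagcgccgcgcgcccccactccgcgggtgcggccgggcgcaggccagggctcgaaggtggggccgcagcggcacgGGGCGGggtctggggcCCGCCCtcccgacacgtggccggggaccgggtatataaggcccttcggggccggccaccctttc
The TUBA1A window held 2 CCAAT boxes, TUBA1B 3 GC boxes, and TUBA1C 1 CCAAT box and 2 GC boxes. None of the 3 held TATAAA. Only exact letters were searched, so near matches such as TATATAA in the TUBA1C window were not counted. The 250 bases before the start were searched with 1 start per gene, that of the transcript used for lengths. Of 10 tubulin promoters (the 9 members and TUBB4B), 7 held CCAAT, against 32% of 35116 RefSeq promoters, and 8 held GGGCGG, against 42.6%. The 35116 promoters, also cut to 250 bases, include every listed start of a gene, so the sets compared are unlike. TATAAA was in 1, against 10.7% of all promoters. TTTGAA, the letters of the cell cycle homology region, were in 2, TUBA1C and TUBB4B, against 13.3%. The hypoxia response core ACGTG was in 3, against 18.5%, and these were TUBA1A, TUBA1C and TUBG1. The STAT site TTCNNNGAA was in 0 of 10, against 6.57%. In the TUBA1C window the ACGTG matches are a single palindrome read on both strands, and 2 of the GC boxes of TUBA1B overlap. RefSeq lists further starts for TUBA1C, TUBB, TUBB3 and TUBB6 whose windows differ in these matches; the second TUBB window held 2 ACGTG and 0 CCAAT, and the other TUBA1C windows held 0 ACGTG. A match describes the letters of these windows only.

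The libraries held between 25572494 and 31707553 counts on genes. In CPM (counts per 1000000 counts on genes, after TMM scaling), the cells had 4800 to 5590 of VIM, the mesenchymal filament, and KRT7 and KRT18, epithelial keratins, had 248 to 288 CPM. VIM had a log2 fold change of -0.17 with EC359 (adjusted p = 0.0135 by edgeR), and the 5 mesenchymal markers together, mostly VIM, had 8190 and 8440 CPM with vehicle and 7670 and 7760 CPM with EC359. The median over these 5 log2 fold changes was -0.006, with SPARC at 0.12, CDH2 at 0.035, ZEB1 at -0.13 and FN1 at -0.0065. The ovarian epithelial markers EPCAM, CDH1 and MUC16 had at most 2 counts in any library, so these defining markers were at or near 0. The lineage factors PAX8 and WT1 had 24 to 41 and 76 to 119 counts, KRT8 had 556 to 770 counts, and the summed level of the 10 listed ovarian epithelial markers was 538 and 580 CPM with vehicle and 586 and 589 CPM with EC359. Of 7 neuronal markers, RBFOX3, ELAVL4 and NEUROD1 had 0 counts in every library, and ELAVL3 had at most 1. SNAP25 had 136 to 204 counts, SYT1 57 to 87 and SYP 17 to 39. The 7 together had 8.82 and 8.32 CPM with vehicle and 9.78 and 9.7 CPM with EC359. Of 6 leukocyte and endothelial markers, CD3E was at 0 and PTPRC and PECAM1 had at most 2 counts, while CD68 had 89.6 to 96.3 CPM and CDH5 had 123 to 131 CPM, and the sum was 213 and 228 CPM with vehicle and 214 and 216 CPM with EC359. The part of these markers in the tubulin values was not tested. In bulk RNA, fewer cells of a type and less RNA per cell cannot be told apart.

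Levels of the isotypes were compared per length, as CPM per kilobase of transcript. In vehicle-treated cells TUBB was the most abundant member, at 1101 and 1108 CPM per kilobase in replicates 1 and 2. TUBA1B followed at 600.2 and 597.7. TUBB6 had 329.5 and 356.2 and TUBA1C had 336 and 343.3, and the ranges of these 2 genes overlapped. TUBG1 had 52.7 and 55.3, above the 42.6 and 49 of TUBB3. TUBA1A had 11.1 and 11.3, and TUBB2A had 3.63 and 4.3. TUBA4A had 0.0769 and 0.25, a level that rests on 4 and 13 raw counts. Apart from TUBB6 and TUBA1C, no ranges of neighbors in this order overlapped between the vehicle libraries. TUBB4B, a beta tubulin outside the set and listed under its older symbol TUBB2C, had 540.6 and 567.8 CPM per kilobase, between TUBA1B and TUBB6. The order depended on the length used. Per kilobase of windows found once, TUBA1B had a mean of 1660 and TUBB 1474. Per kilobase of coding sequence, TUBB had 2085, TUBA1B 720.3 and TUBA1C 711.9.

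**Figure D2:**
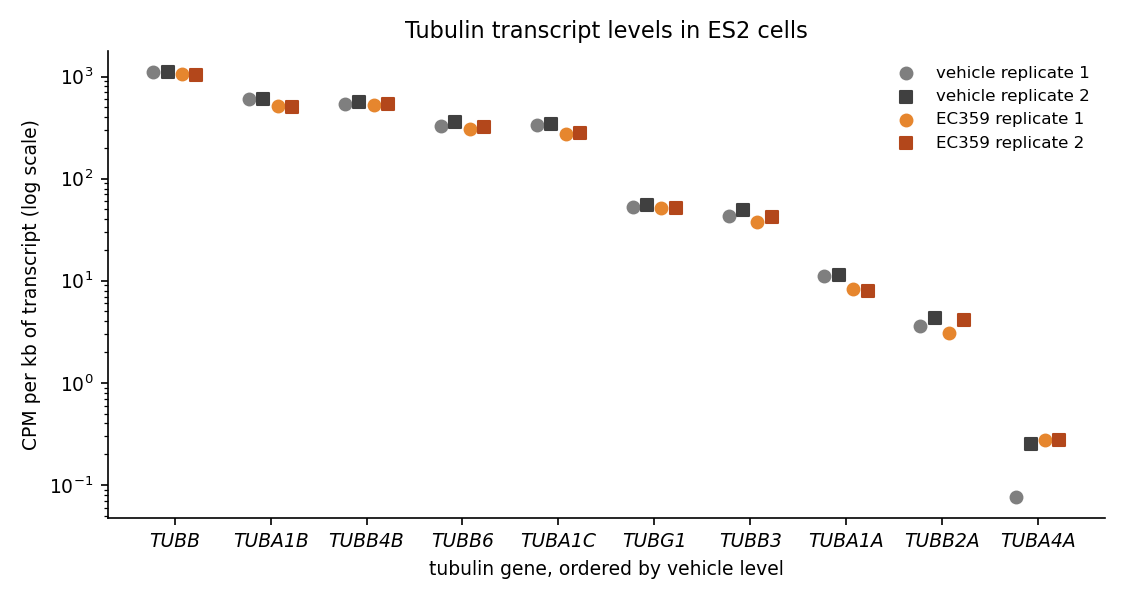
Level of each tubulin gene in CPM per kilobase of transcript (y axis, log scale) in the 4 libraries (gray, vehicle; orange, EC359; circles, replicate 1; squares, replicate 2), with genes ordered by their vehicle mean along the x axis. The levels run from 1104 for TUBB down to 0.1636 for TUBA4A, whose vehicle replicates lie far apart.

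Of the alpha tubulin mRNA per kilobase of transcript, TUBA1B made up 63% and TUBA1C 35.8% in vehicle-treated cells. TUBA1A accounted for 1.18% and TUBA4A for 0.0172%. The TUBA1C share was 22% per kilobase of windows found once and 49.2% per kilobase of coding sequence, so its size depends on how the uncounted reads are treated. TUBA1B had a higher mean level than TUBA1C under each of the 3 lengths. Per kilobase of coding sequence these means were close (720.3 and 711.9), and the order of TUBA1B and TUBA1C differed between the vehicle libraries. Of the beta tubulin mRNA, TUBB made up 53.8%, TUBB4B 27%, TUBB6 16.7%, TUBB3 2.23% and TUBB2A 0.193%. The ES2 cells therefore drew nearly all counted tubulin mRNA from TUBB, TUBA1B, TUBB4B, TUBB6 and TUBA1C.

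With EC359, the alpha isotypes of the chromosome 12 cluster were lower in both libraries than in either vehicle library. TUBA1C, a broadly expressed alpha tubulin and the gene that led to this selection, had 26760 and 27340 normalized counts with vehicle and 21700 and 22060 with EC359. Normalized counts are counts brought to the mean effective library size. The log2 fold change of TUBA1C was -0.31 (standard error 0.029), a difference of -19.1%, while the replicates of a treatment differed by 2.18% and 1.67%.

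TUBA1B, the most abundant alpha tubulin, had 27550 and 27440 normalized counts with vehicle and 23570 and 23330 with EC359. Its log2 fold change was -0.23 (standard error 0.028), and the difference of -14.7% compared with 0.418% between the vehicle libraries and 1.02% between the EC359 libraries. TUBA1A, the alpha isotype best known from developing neurons, had 525.7 and 533 normalized counts with vehicle and 391.8 and 374.4 with EC359. At -0.47 (standard error 0.078), its log2 fold change was the lowest of the 9 genes. In all 3 genes the groups lay apart, and the distance between treatments exceeded the distance between replicates.

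TUBA4A, the alpha tubulin that ends in glutamate, had 4.45 and 14.5 normalized counts with vehicle and 15.9 and 15.9 with EC359. Vehicle replicate 2 was close to the EC359 libraries and replicate 1 was low, and the log2 fold change of 0.74 had a standard error of 0.49. Without vehicle replicate 2 it was 1.81, and without vehicle replicate 1 it was 0.14. Its exons also overlap those of STK16 by 628 bases on the opposite strand. At this depth no difference of TUBA4A could be resolved.

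**Figure D3:**
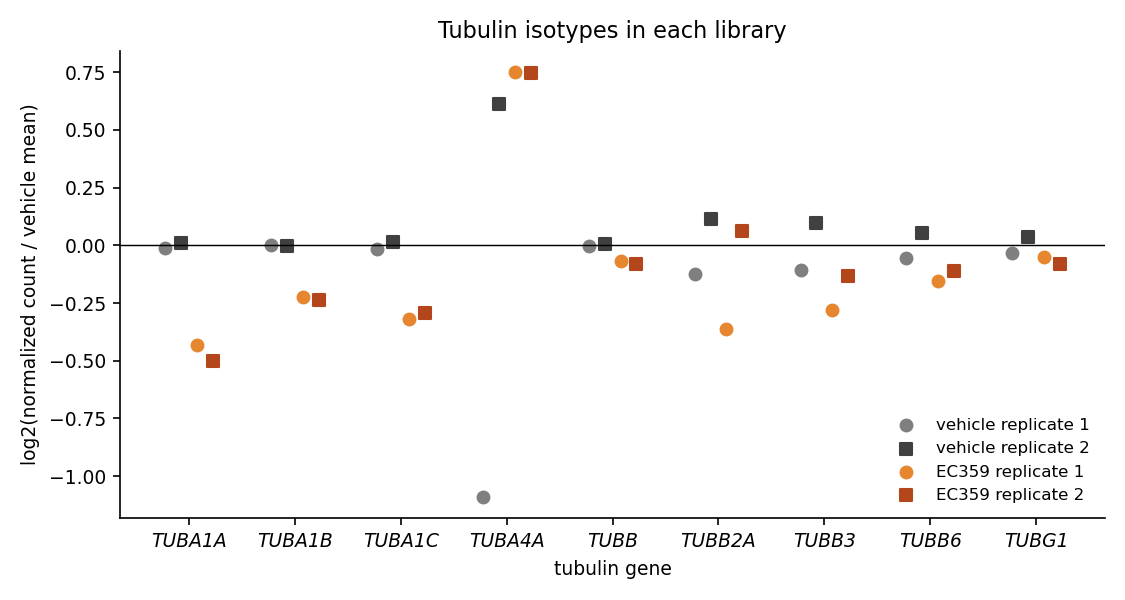
Normalized count of each isotype in each library relative to the mean of the vehicle libraries (y axis, log2 scale; 0 is the vehicle mean), for the 9 genes along the x axis (gray, vehicle; orange, EC359; circles, replicate 1; squares, replicate 2). Both EC359 points lie below both vehicle points in 7 genes, they overlap the vehicle points in TUBB2A, and they lie just above vehicle replicate 2 in TUBA4A.

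In the fit to all 4 libraries, the log2 fold changes of the beta isotypes were smaller in size than those of the cluster. TUBB3 exceeded TUBA1B in size with the GC trend removed (-0.24 against -0.20), without vehicle replicate 1 (-0.30 against -0.23) and without EC359 replicate 2 (-0.28 against -0.22), and TUBB2A did so in the last 2 of these (-0.25 and -0.36). TUBB, the main beta tubulin, had 78100 and 78620 normalized counts with vehicle and 74780 and 74100 with EC359. The log2 fold change was -0.074 (standard error 0.026), a difference of -5%, against differences of 0.671% and 0.915% between replicates. TUBB6, a beta isotype of non-neuronal cells, had 17470 and 18880 with vehicle and 16310 and 16850 with EC359, with a log2 fold change of -0.13 (standard error 0.039). The groups of both genes lay apart, but for TUBB6 the 8.11% between the vehicle libraries was nearly as large as the difference of -8.79% between treatments.

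TUBB3, the neuronal class III isotype, had 2049 and 2358 normalized counts with vehicle and 1814 and 2010 with EC359. Its log2 fold change was -0.21 (standard error 0.071), and the difference of -13.2% between treatments was smaller in size than the 15% between the vehicle libraries. Without vehicle replicate 2 the log2 fold change of TUBB3 was -0.11, and without vehicle replicate 1 it was -0.30. TUBB2A, a beta isotype abundant in brain, had 165.6 and 195.8 with vehicle and 140.6 and 188.6 with EC359, and its groups overlapped (log2 fold change -0.14, standard error 0.16). The sign of TUBB2A turned to 0.061 when EC359 replicate 1 was left out. TUBG1, the main gamma tubulin, had 2391 and 2509 with vehicle and 2366 and 2315 with EC359 (log2 fold change -0.066, standard error 0.046), with the highest EC359 value only slightly below the lowest vehicle value.

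Summed over all 10 alpha genes, normalized counts were 54850 and 55340 with vehicle and 45680 and 45790 with EC359, a difference of -17%. Summed over all 9 beta genes they were 121600 and 125100 with vehicle and 116100 and 116600 with EC359, a difference of -5.67%. Both sums lay apart between treatments, and the alpha sum differed more. The ratio of alpha to beta levels in CPM per kilobase of transcript was 0.463 ± 0.00913 in vehicle-treated cells and 0.411 ± 0.00278 after EC359 (SD, n = 2 per treatment), a difference of -11.3%. The difference was -10.8% per kilobase of windows found once and -12% per kilobase of coding sequence. The size of the ratio itself depended on the length used. Per kilobase of windows found once it was 0.8625 and 0.8377 with vehicle and 0.763 and 0.7537 with EC359. Per kilobase of coding sequence it was 0.4455 and 0.4371 with vehicle and 0.3887 and 0.3878 with EC359. Since these sums hold the members themselves, they carry the same selection and no test was made. Within the alpha sum the TUBA1C share was 35.46% and 36.03% with vehicle and 34.28% and 34.9% with EC359, so TUBA1C was lower by more than the sum as a whole.

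**Figure D4:**
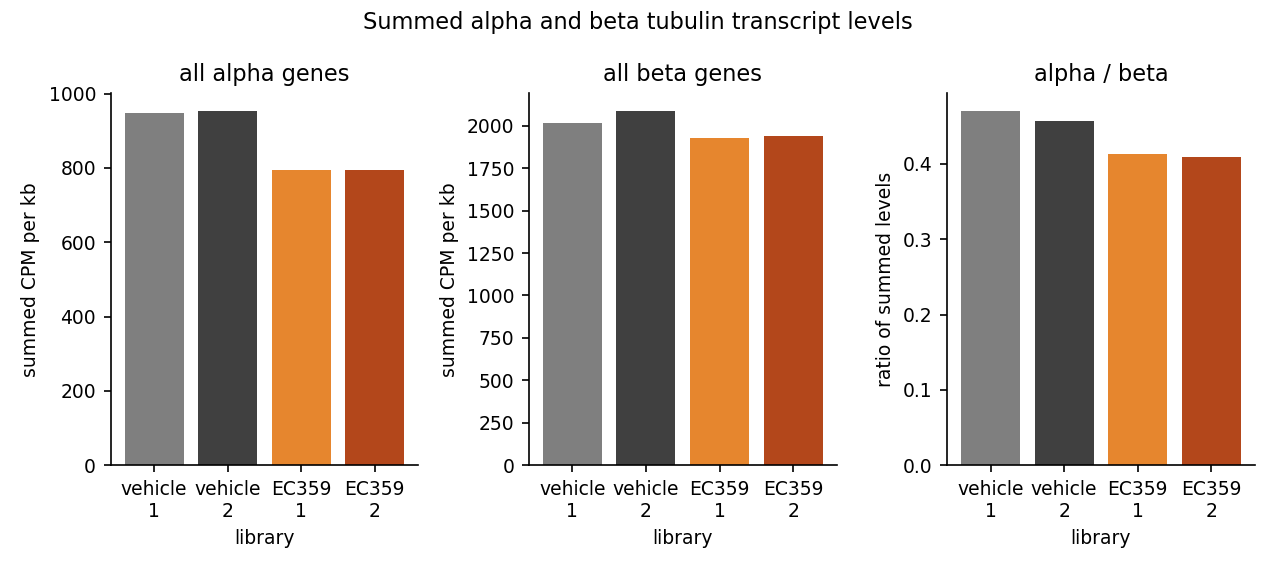
Summed CPM per kilobase of transcript for all alpha genes (left), for all beta genes (middle) and their ratio (right) in each of the 4 libraries, with 1 bar per library and axes that start at 0. The alpha bars stand at 947.6 and 952.8 with vehicle and at 794.6 and 793.6 with EC359, and the ratio is 0.4698 and 0.4569 with vehicle and 0.4128 and 0.4089 with EC359.

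All 9 members had enough counts to be tested among 12706 genes. TUBA1B and TUBA1C were called lower by edgeR at an adjusted p under 0.01 (2 of 9), where 0.795% of all genes were called lower, and 0 of 9 were called higher, where 0.299% were. Both EC359 libraries lay below both vehicle libraries in 7 of 9 members, against 25.4% of all genes, and above them in 1, against 26.1%. The median log2 fold change of the 9 genes was -0.14, beside 0.003 over all genes tested. Without EC359 replicate 1, 0 genes were called over all genes tested, and without EC359 replicate 2, 2 genes were called, both higher, so neither TUBA1B nor TUBA1C was called in those fits. The members were selected on this contrast, and on TUBA1C in particular, so nothing is read from these counts.

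For the counts that follow, the shares over all 12706 genes were 1.68% higher and 2.64% lower at an adjusted p under 0.05, and 10.7% higher and 11% lower at an unadjusted p under 0.05. Of 14 other human tubulin genes, 4 had enough counts to be tested, and 0 were called at an adjusted p under 0.01 or under 0.05 by edgeR, with 0 at an unadjusted p under 0.05 and 0 called by DESeq2. TUBB4B had 23840 and 25040 normalized counts with vehicle and 23040 and 23500 with EC359 (log2 fold change -0.071, standard error 0.033, adjusted p = 0.244). TUBG2, the second gamma tubulin, had a log2 fold change of 0.0009 (adjusted p = 0.998). TUBD1 and TUBE1, the delta and epsilon tubulins of centrioles, had -0.10 (adjusted p = 0.639) and 0.14 (adjusted p = 0.325). TUBB4B was called by none of the other settings at 0.01 except the fit with a replicate block. Of the 10 untested genes, TUBA3C, TUBA3D, TUBA3E and TUBB8 had 0 counts in every library, and the highest normalized count of the others was 11.1, in TUBA8.

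Tubulin needs the chaperonin CCT, prefoldin and the tubulin cofactors to fold into a dimer. All 22 listed folding genes were tested, 1 was called lower and 0 higher at 0.01, where 0.795% and 0.299% of all genes were. At an adjusted p under 0.05, 3 were lower and 0 higher, and 5 lower and 1 higher passed an unadjusted p under 0.05. Their median log2 fold change was -0.042, with 16 lower and 6 higher in mean. The called gene was CCT7, a subunit of the CCT ring. It had 23150 and 22910 normalized counts with vehicle and 20350 and 20210 with EC359, so it fell by 0.18 on the log2 scale (standard error 0.029, adjusted p = 0.00776 by edgeR). With total counts in place of TMM factors CCT7 had an adjusted p of 0.0125, and over all alternatives it ranged from 4.86e-09 to 0.36, the latter without EC359 replicate 1. The most abundant folding genes were CCT3 and CCT6A, 2 more CCT subunits. CCT3 had 36110 and 36230 with vehicle and 33710 and 32990 with EC359 (log2 fold change -0.12, adjusted p = 0.0457), while the groups of CCT6A overlapped (0.048, adjusted p = 0.479). At 0.01, CCT3 and CCT5 were called lower with a replicate block and with the GC trend removed. PFDN6 was called lower with a replicate block, and TBCD was called higher with the GC trend removed. CCT serves actin as well as tubulin.

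The autoregulation list held TTC5, SCAPER and 3 CCR4-NOT subunits, and 0 of 5 were called in either direction at an adjusted p under 0.01 or 0.05 by edgeR. At an unadjusted p under 0.05, 2 were higher and 0 lower, and DESeq2 called 0. Their median log2 fold change was 0.058. CNOT10, a CCR4-NOT subunit, had the lowest p, with 1938 and 1784 normalized counts with vehicle and 2165 and 2140 with EC359 (log2 fold change 0.21, standard error 0.052, adjusted p = 0.0523). CNOT10 was called higher at 0.01 with a replicate block, with the GC trend removed and without vehicle replicate 1. CNOT1, the scaffold of the complex, and CNOT11, the most abundant genes of the list, had -0.0015 (adjusted p = 0.989) and 0.058 (adjusted p = 0.48). TTC5 itself had 440.1 and 458.4 with vehicle and 443.1 and 403.4 with EC359, and its groups overlapped.

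Genes that nucleate microtubules with gamma tubulin included 0 calls at 0.01 among 22 tested by edgeR and 1 by DESeq2, with 3 higher and 1 lower at an unadjusted p under 0.05, and their median was -0.001. HAUS2, a subunit of augmin, which branches new microtubules from old ones, had the lowest p. It had 2470 and 2381 normalized counts with vehicle and 2885 and 2891 with EC359 (log2 fold change 0.25, standard error 0.043, adjusted p = 0.0113 by edgeR), and it passed 0.01 with DESeq2, total counts only, a replicate block, the GC trend removed and without either vehicle replicate. TPX2, a spindle assembly factor, and CKAP5, a microtubule polymerase, were the most abundant. TPX2 had 20200 and 19950 with vehicle and 18640 and 18630 with EC359 (log2 fold change -0.11, adjusted p = 0.0649). TPX2 was called lower at 0.01 with a replicate block and with the GC trend removed. MZT2A and MZT2B, also in this list, were called higher with a replicate block. CKAP5 had overlapping groups (-0.043, adjusted p = 0.509).

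Enzymes that modify tubulin were called in 0 of 19 tested genes at 0.01 by edgeR and in 0 by DESeq2, with 2 higher and 2 lower at an unadjusted p under 0.05 and a median of 0.008. At 0.01, AGBL5 was called lower with a replicate block, with the GC trend removed and without vehicle replicate 1, and ATAT1, the tubulin acetyltransferase, was called lower with a replicate block (log2 fold change -0.42). AGBL5, a carboxypeptidase that trims glutamates from tubulin tails, had 997 and 1089 normalized counts with vehicle and 839.4 and 866.5 with EC359 (log2 fold change -0.29, standard error 0.067, adjusted p = 0.0376). TTL, the ligase that restores the final tyrosine, and TTLL12 were the most abundant genes of the list, and both had overlapping groups (0.0079, adjusted p = 0.932, and 0.044, adjusted p = 0.652). VASH2, a detyrosinating enzyme singled out after its values were seen, had the largest log2 fold change at 2.04 (adjusted p = 0.0564) and rested on 5.56 and 2.23 normalized counts with vehicle and 15 and 17.7 with EC359. Since VASH2 passed the minimum count of 10 only through the EC359 libraries, where it was high, nothing is read from its difference. VASH2 is among the genes counted as higher at an unadjusted p under 0.05.

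Of 32 tested genes for microtubule binding and dynamics, 0 were called at 0.01 by edgeR, while 1 was higher and 3 were lower at 0.05, and 5 were higher and 3 lower at an unadjusted p under 0.05. The median was 0.037. PRC1, which bundles antiparallel microtubules in the midzone of the spindle, had the lowest p, with 8076 and 7836 normalized counts with vehicle and 7023 and 6686 with EC359 (log2 fold change -0.21, standard error 0.037, adjusted p = 0.012). TACC3, a spindle protein, and MAP4, the ubiquitous microtubule-associated protein, were the most abundant. MAP4 had 11300 and 11310 with vehicle and 10250 and 10350 with EC359 (log2 fold change -0.13, adjusted p = 0.037), and TACC3 had -0.05 (adjusted p = 0.403). DESeq2 called PRC1 lower and TACC1, another TACC protein, higher at 0.01. The fits with a replicate block and with the GC trend removed did the same, and both also called MAP4 and KIF2C lower. With a replicate block MAP1S was called higher as well. Over the 6 lists together, 104 genes were tested, 1 was called at 0.01 and 9 at 0.05 (2 higher, 7 lower), and as many had a lower as a higher mean (52 each). Over all genes tested, 139 of 12706 were called at 0.01 and 549 at 0.05 (213 higher, 336 lower), and 6229 had a lower and 6476 a higher mean.

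**Figure D5:**
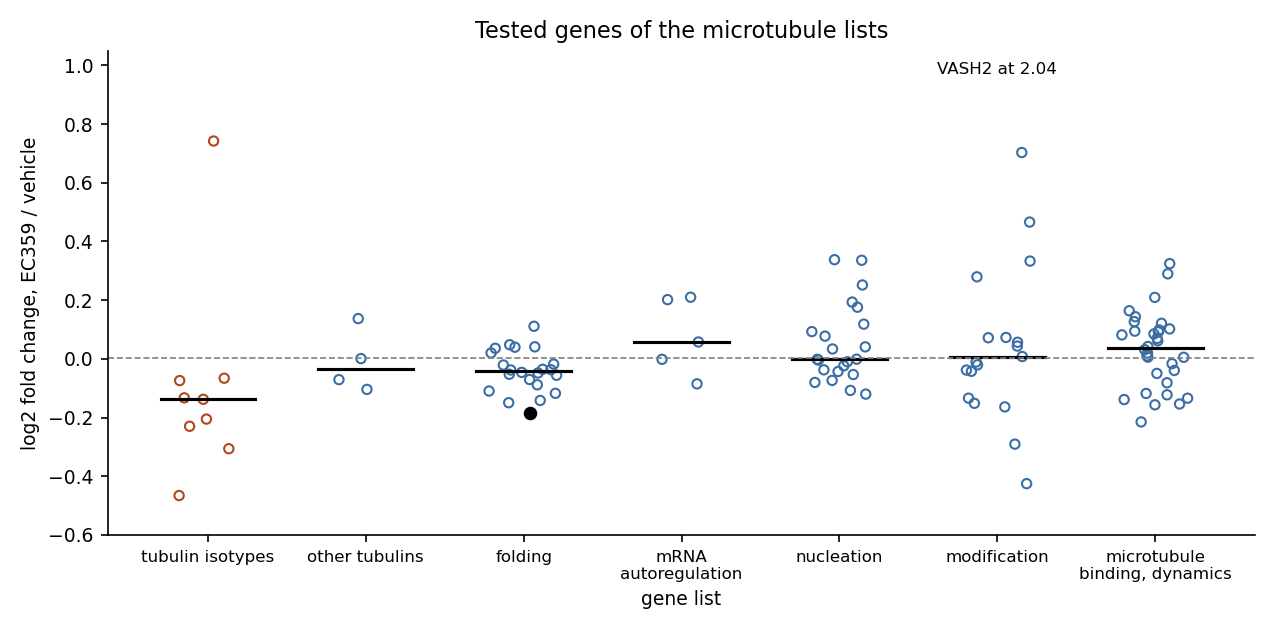
Log2 fold change (EC359 over vehicle, y axis) of every tested gene in each list (x axis), with the list's median as a bar and the median of all genes tested as a dashed line; the filled point is CCT7, the gene of the pathway lists with an adjusted p under 0.01, and VASH2 lies beyond the axis. The isotypes (orange, selected on this contrast, not marked for calls) have a median of -0.14, and the medians of the pathway lists lie between -0.042 and 0.058.

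Among all other tested genes, the profile across the 4 libraries was nearest to TUBA1C in MYEOV, SFXN3, SERF2, FOXO4 and KIAA0114. Likeness was the root mean square difference of log2 CPM, each gene centered on its vehicle mean, and it ran from 0.00724 (MYEOV) to 0.0137 (KIAA0114). MYEOV had 5064 and 5235 normalized counts with vehicle and 4127 and 4175 with EC359, and SERF2 had 4120 and 4215 with vehicle and 3307 and 3370 with EC359. FOXO4, a forkhead transcription factor, had 126.7 and 132.4 with vehicle and 102.6 and 105.5 with EC359. With 4 libraries many genes can match this closely, and the list is a description.

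The tested genes nearest to the chromosome 12 cluster on GRCh37 were LMBR1L, from 49490919 to 49504683, and TROAP, from 49717019 to 49725514. The vehicle mean of LMBR1L was 381.4 ± 17 normalized counts and its EC359 mean 374.6 ± 5.55 (SD of 2 libraries), a log2 fold change of -0.026 with an adjusted p of 0.902 from edgeR. TROAP, which encodes trophinin associated protein, had a vehicle mean of 1712 ± 38.7 and an EC359 mean of 1487 ± 69.2 normalized counts (SD of 2 libraries), a log2 fold change of -0.20 with an adjusted p of 0.0645 from edgeR. Neither neighbor was called, and whether they differ from the cluster was not tested.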

How the data were processed

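ES2 RNA libraries (TruSeq Stranded mRNA, 50-base single-end reads) were aligned by the authors to UCSC hg19 with TopHat2, annotated with NCBI RefSeq and counted with HTSeq, and the submitters' processing notes name TopHat2 2.0.8b and CASAVA 1.8.2. The authors deposited unnormalized read counts, 1 per gene symbol. The strand setting of the counting is not given in the sources used here, so genes that overlap on opposite strands, such as TUBA4A and STK16, are uncertain. Rows that name no gene were left out. They included reads on no gene (10.9% to 12.1% of reads with a single alignment) and ambiguous reads (0.852% to 0.879%).

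Low genes were removed by filterByExpr (minimum count 10, minimum total 15), TMM factors set the library sizes, and the 4 libraries were fitted with the quasi-likelihood method of edgeR 4.0.16 (R 4.3.3), with Benjamini-Hochberg adjustment over 12706 genes and a threshold of 0.01. Standard errors were obtained from the log2 fold change and the F statistic, with the absolute change over the root of F. The prior degrees of freedom were 8.29 and the biological coefficient of variation 3.5%. Replicates differed by more than sampling noise (chi-square per degree of freedom 3.69 between the vehicle and 2.65 between the EC359 libraries), and each was taken as a replicate. Precision is limited by 2 libraries per treatment and by low counts for TUBA4A.

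Positions, lengths and coding sequences came from GENCODE lifted to GRCh37 (the same assembly as hg19), which matched 82.4% of symbols. Levels used 1 transcript per gene. Proteins were aligned with Biopython 1.88. Promoters came from RefSeq on GRCh38.p14, a different build, and were matched by symbol. Alternatives were RLE factors, total counts only, DESeq2 1.42.0, a minimum of 10 counts in every library, no filter, an adjusted p under 0.05, a replicate block, removal of the GC trend, leaving out each library, and other lengths for levels, of which the coding length was added after seeing the data.

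The members and the gene lists were chosen with earlier results of these data known. Genes named are the 9 members, from each list every called gene, the 2 most abundant tested genes and, where none was called, the gene with the lowest p, the 5 nearest profiles to TUBA1C, and the nearest tested gene on each side of the chromosome 12 cluster. TTC5, TUBG2, TUBD1, CCT5, PFDN6, TBCD, MZT2A, MZT2B, TACC1, KIF2C, MAP1S, ATAT1 and VASH2 were named outside this rule, after their values were seen. Some sequences and marker genes are not reported here.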

Additional observations from a re-analysis of the deposited data

How the results depend on the processing

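TUBA1A, TUBA1B, TUBA1C, TUBB, TUBB3, TUBB6 and TUBG1 were lower with EC359 under all 11 alternatives run. Over these, the log2 fold change ran from -0.32 to -0.28 for TUBA1C, from -0.24 to -0.20 for TUBA1B and from -0.50 to -0.43 for TUBA1A. TUBB2A ran from -0.36 to 0.061 and changed sign without EC359 replicate 1. TUBA4A ran from 0.14 to 1.81, and a minimum of 10 counts in every library left it out. Leaving out 1 library moved the median of the 9 genes between -0.226 (without vehicle replicate 1) and -0.081 (without vehicle replicate 2). The number of genes called over all genes (139, with 38 higher and 101 lower) was 230 with DESeq2, 61 without a filter, 932 with the GC trend removed and 549 at an adjusted p under 0.05. With total counts only it was 52 higher and 68 lower. Leaving out 1 library gave 0 (without EC359 replicate 1) to 539 (without vehicle replicate 2), with 2 without EC359 replicate 2 and 390 without vehicle replicate 1, where the remaining library of a treatment is assumed to vary like the other treatment. The number of pathway genes called (1) was 4 with DESeq2, 0 without a filter, 12 with the GC trend removed and 9 at an adjusted p under 0.05, and leaving out 1 library gave 0 to 8. With total counts only the 1 called gene was HAUS2 and not CCT7. A replicate block gave 1539 genes (692 higher, 847 lower) and 17 pathway genes. Samples with the same number correlated at 0.112 in their deviations from the group means, with 2 pairs only, so the numbers do not establish a pairing. The TUBA1C share of alpha mRNA was 22.03% by windows found once and 49.21% by coding length, and 35.46% to 36.03% without a vehicle library. Beyond these settings, the cause of each change was not tested.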
